A study of Mus musculus with 7 samples.

Results

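The thick ascending limb of the loop of Henle was followed through 7 of its transcripts, those of Umod, Slc12a1, Kcnj1, Egf, Bsnd, Ppp1r1a and Casr. Each matched exactly 1 row of a table of 42256 gene identifiers by its Ensembl identifier, and all 7 were among the 17964 genes with enough counts to test. The libraries came from whole kidneys of adult males of mixed strain (129S1/Sv x C57BL/6). Of them 3 carry the label CDH11+/+, called WT-labelled here, and 4 the label CDH11-/-, a knockout of cadherin-11, called KO-labelled. All 7 mice had lost a kidney and had received angiotensin II by osmotic pump at 800 ng/kg/min, and were killed 4 weeks after surgery. No uninjured mouse was analysed here, so a difference present before the injury cannot be told apart from a different response to it. The comparison asks whether transcripts of this segment differ between the labelled genotypes in the injured kidney.

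The thick ascending limb reabsorbs salt without water and so dilutes the tubular fluid and builds the medullary gradient. Sodium, potassium and chloride enter its cells together across the apical membrane, potassium returns to the lumen through a channel, chloride leaves through basolateral channels, and the sodium pump drives the whole. The lumen-positive voltage that results pulls calcium and magnesium between the cells, and the calcium-sensing receptor on the basolateral side restrains this transport.

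The Cdh11 transcript itself went against the labels: it stood at 6.79, 4.52 and 10.77 CPM (counts scaled to the size of each library) in WT-labelled replicates 1 to 3 and at 11.26, 9.56, 11.64 and 10.98 CPM in KO-labelled replicates 1 to 4. The log2 fold change was 0.56 (SE 0.26, edgeR adjusted p = 0.14), and no source used here says which part of the gene was deleted. Every direction given is thus one between labels. WT-labelled replicate 3 stood apart in 4 Y-linked transcripts (Uty, Kdm5d, Ddx3y and Eif2s3y), with 64.7 summed CPM against 110.8 to 144.9 in the other 6. Mitochondrially encoded genes took 17.95% to 22.32% of the counts in the WT-labelled libraries and 14.79% to 18.50% in the KO-labelled ones.

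All 7 transcripts had a lower mean in the KO-labelled kidneys, and 4 of them passed the test as lower: Kcnj1, Bsnd, Ppp1r1a and Casr. Among all tested genes, 12.9% were called lower, 29.7% were called in either direction and 51.3% had a log2 fold change under 0. The 7 were chosen with earlier results of these data known, so setting them beside such shares is no test. Egf, Umod and Slc12a1, the members with the highest CPM, did not pass. In 5 of the 7 (Kcnj1, Bsnd, Ppp1r1a, Casr and Umod) every KO-labelled library lay below every WT-labelled one, as in 16.6% of all tested genes. At an adjusted p under 0.01, 3 of the 7 (Kcnj1, Bsnd and Ppp1r1a) were lower, against 5.86% of all tested genes. The median log2 fold change was -0.46 over the 7 and -0.01 over all tested genes. Without WT-labelled replicate 3 the number called lower was 4, without WT-labelled replicate 1 it was 3, and DESeq2 called 6 and limma-voom 5. In bulk tissue, fewer cells of a type and less RNA per cell cannot be told apart.

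Promoter sequence was available from RefSeq (GRCm38.p6) for 5 of the 7 genes. It is shown for the apical cotransporter, for uromodulin, the most abundant member, and for Kcnj1, the member with the largest fall. Each window starts 250 bases before the RefSeq start and ends before the first base that GENCODE M21 places in an exon of the gene, on GRCm38. Umod lies at chr7:119479283-119479512 (minus strand), Slc12a1 at chr2:125152350-125152504 (plus strand) and Kcnj1 at chr9:32393735-32393984 (plus strand, inside the GENCODE gene, before the RefSeq start).
Umod: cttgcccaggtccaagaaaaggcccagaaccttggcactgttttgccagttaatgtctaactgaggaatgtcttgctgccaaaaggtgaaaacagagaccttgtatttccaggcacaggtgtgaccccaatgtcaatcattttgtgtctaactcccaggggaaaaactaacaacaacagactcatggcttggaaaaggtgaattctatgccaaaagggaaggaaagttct
Slc12a1: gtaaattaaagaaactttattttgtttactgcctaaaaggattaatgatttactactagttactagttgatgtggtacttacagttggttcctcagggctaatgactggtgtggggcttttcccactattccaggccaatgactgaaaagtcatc
Kcnj1: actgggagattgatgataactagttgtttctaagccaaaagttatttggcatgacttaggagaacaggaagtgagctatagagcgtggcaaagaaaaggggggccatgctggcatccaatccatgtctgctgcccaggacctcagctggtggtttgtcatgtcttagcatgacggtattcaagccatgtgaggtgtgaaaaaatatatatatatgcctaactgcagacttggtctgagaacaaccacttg
Over the full 250 bases the GC content was 39.6% for Slc12a1, 44.8% for Kcnj1, 45.2% for Umod, 48.8% for Casr, and 50.4% and 52.0% for the 2 starts of Egf. These windows lay below the median of 52.4% over 32851 promoter windows of the same length and above the 5th percentile of 34.8%.

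**Figure D1:**
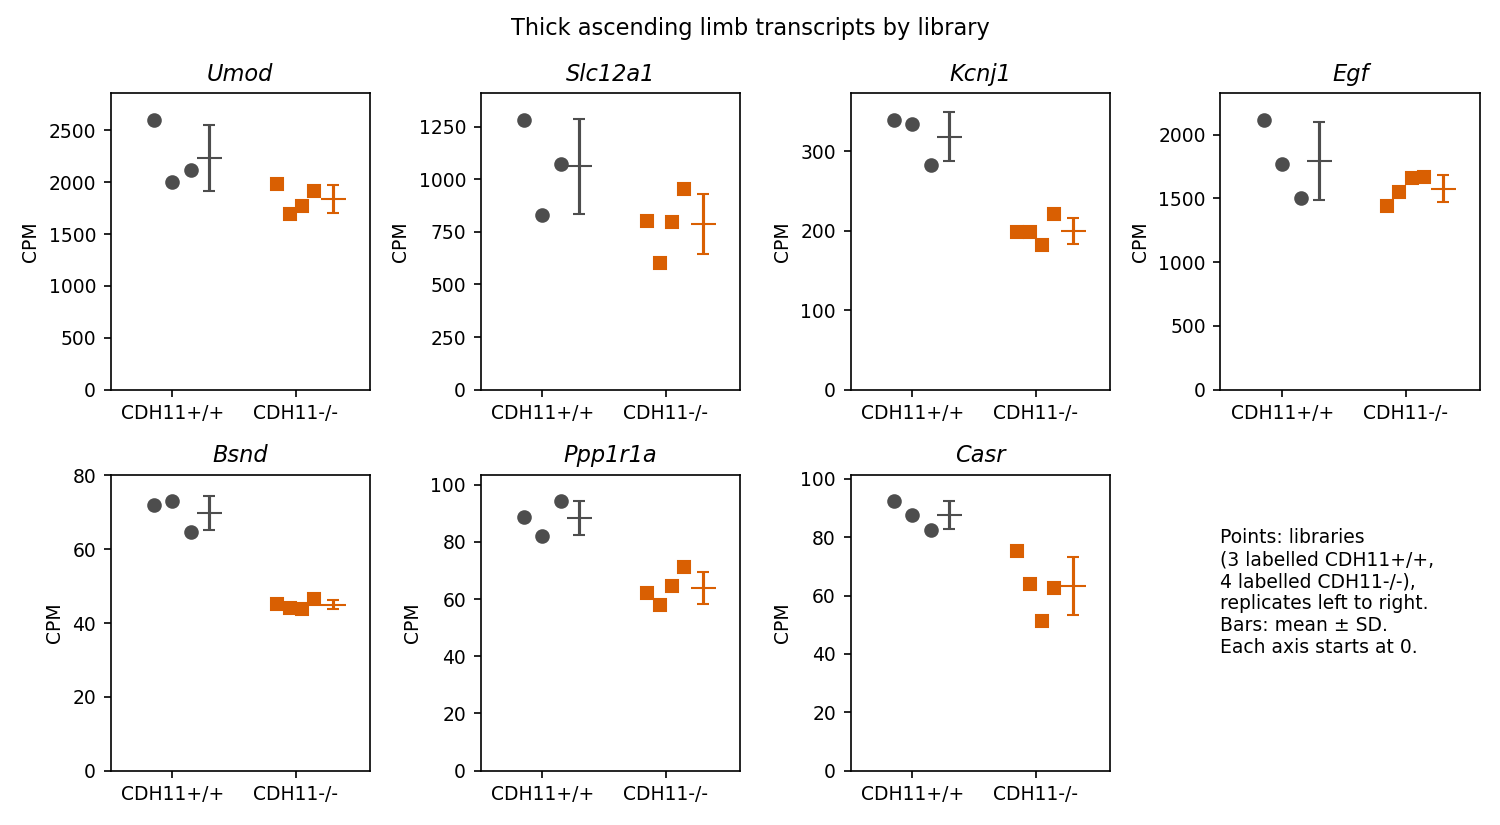
CPM of the 7 transcripts in each library, with the mean and SD of the 3 libraries labelled CDH11+/+ and the 4 labelled CDH11-/-, on axes that start at 0. Kcnj1, Bsnd, Ppp1r1a and Casr separate the groups, while Slc12a1 and Egf overlap.

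The cotransporter for salt entry was lower on average without passing the test, while the potassium channel beside it fell. Slc12a1 (ENSMUSG00000027202, mm10 chromosome 2, 125152505 to 125230002, plus strand) encodes NKCC2, the sodium-potassium-chloride cotransporter that loop diuretics block. It stood at 1279.7, 828.2 and 1074.6 CPM in WT-labelled replicates 1 to 3 and at 799.3, 602.9, 796.2 and 954.7 CPM in KO-labelled replicates 1 to 4. The highest KO-labelled library, replicate 4, lay above WT-labelled replicate 2, so the groups overlapped. The log2 fold change was -0.43 (SE 0.18, 95% interval -0.83 to -0.02, edgeR adjusted p = 0.104). It passed the threshold with DESeq2 (adjusted p = 0.0298) and, with edgeR, without WT-labelled replicate 2 (log2 fold change -0.58, adjusted p = 0.0392). Without WT-labelled replicate 1, the highest library, the log2 fold change was -0.28 (adjusted p = 0.316). An antisense model within the gene, Gm14002, had 0 to 4 counts in every library, against at least 43148 for Slc12a1.

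Kcnj1 (ENSMUSG00000041248, chromosome 9, 32372493 to 32399197, plus strand) encodes ROMK, the apical channel that returns potassium to the lumen and keeps the cotransporter supplied. Its values were 338.6, 333.5 and 282.3 CPM in the WT-labelled libraries and 198.3, 197.9, 181.9 and 221.0 CPM in the KO-labelled ones. Every KO-labelled library lay below every WT-labelled one. Kcnj1 fell 1.59-fold, the largest fall among the 7 (log2 fold change -0.67, SE 0.089, 95% interval -0.87 to -0.47, edgeR adjusted p = 0.000775). The principal cells of the collecting duct also make this channel. Of 7 principal cell markers 4 were called lower and 0 higher in the same libraries (edgeR), where 12.9% of all tested genes were called lower. The part of these cells in the Kcnj1 value was not tested.

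Chloride exit was represented by Bsnd (ENSMUSG00000025418, chromosome 4, 106483456 to 106492283, minus strand). It encodes barttin, the subunit that chloride channels of the basolateral membrane need to reach it, in the limb and in intercalated cells. It stood at 71.86, 72.96 and 64.59 CPM in the WT-labelled libraries and at 45.28, 44.07, 43.81 and 46.45 CPM in the KO-labelled ones. The KO-labelled libraries lay close together, with an SD of 1.22 CPM, and all below the WT-labelled ones. Bsnd fell 1.55-fold (log2 fold change -0.64, SE 0.061, 95% interval -0.77 to -0.50, edgeR adjusted p = 0.000173), the smallest adjusted p of the 7. Of 7 intercalated cell markers, 3 were called lower and 0 higher, where 12.9% of all tested genes were called lower. Their part in the Bsnd value was not tested.

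Regulators of the transport were lower as well. Casr (ENSMUSG00000051980, chromosome 16, 36493696 to 36562141, minus strand), the calcium-sensing receptor, had 92.27, 87.63 and 82.64 CPM in the WT-labelled libraries and 75.45, 63.89, 51.13 and 62.68 CPM in the KO-labelled ones. The groups did not overlap, and KO-labelled replicate 3 was the lowest. Casr fell 1.38-fold (log2 fold change -0.47, SE 0.11, 95% interval -0.73 to -0.21, edgeR adjusted p = 0.0148). Casr missed the threshold when WT-labelled replicate 1 was left out (log2 fold change -0.44, adjusted p = 0.0549).

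Ppp1r1a (ENSMUSG00000022490, chromosome 15, 103530279 to 103538003, minus strand) encodes inhibitor-1, which blocks protein phosphatase 1 once protein kinase A has phosphorylated it. Its values were 88.67, 82.13 and 94.15 CPM in the WT-labelled libraries and 62.22, 58.02, 64.43 and 71.32 CPM in the KO-labelled ones. No library of either group reached the range of the other. The fall was 1.38-fold (log2 fold change -0.46, SE 0.080, 95% interval -0.64 to -0.28, edgeR adjusted p = 0.00291).

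The secreted products of the segment were the members with the smallest differences. Umod (ENSMUSG00000030963, chromosome 7, 119462711 to 119479282, minus strand) encodes uromodulin, a membrane-anchored protein that is cleaved into the urine and polymerises there. It stood at 2595.3, 1998.7 and 2113.1 CPM in the WT-labelled libraries and at 1987.1, 1689.0, 1765.6 and 1912.4 CPM in the KO-labelled ones. The groups did not overlap, though WT-labelled replicate 2 and KO-labelled replicate 1 nearly met. The log2 fold change was -0.28 (SE 0.11, 95% interval -0.52 to -0.04, edgeR adjusted p = 0.0773). It was -0.17 without WT-labelled replicate 1, the highest library, and passed the threshold with DESeq2 (adjusted p = 0.0227) and limma-voom (adjusted p = 0.0388).

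Egf (ENSMUSG00000028017, chromosome 3, 129677565 to 129755316, minus strand) encodes the membrane-bound precursor of epidermal growth factor, made in the thick ascending limb and the distal convoluted tubule. It had 2112.0, 1768.8 and 1503.3 CPM in the WT-labelled libraries and 1439.1, 1548.9, 1658.0 and 1665.7 CPM in the KO-labelled ones. WT-labelled replicate 3 lay within the KO-labelled range. The log2 fold change was -0.19 (SE 0.12, 95% interval -0.45 to 0.08, edgeR adjusted p = 0.265). Without WT-labelled replicate 1 it was -0.06 and without WT-labelled replicate 3 -0.31 (adjusted p = 0.0524), so single libraries set its size. An interval that spans 0 does not show that Egf was unchanged.

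**Figure D2:**
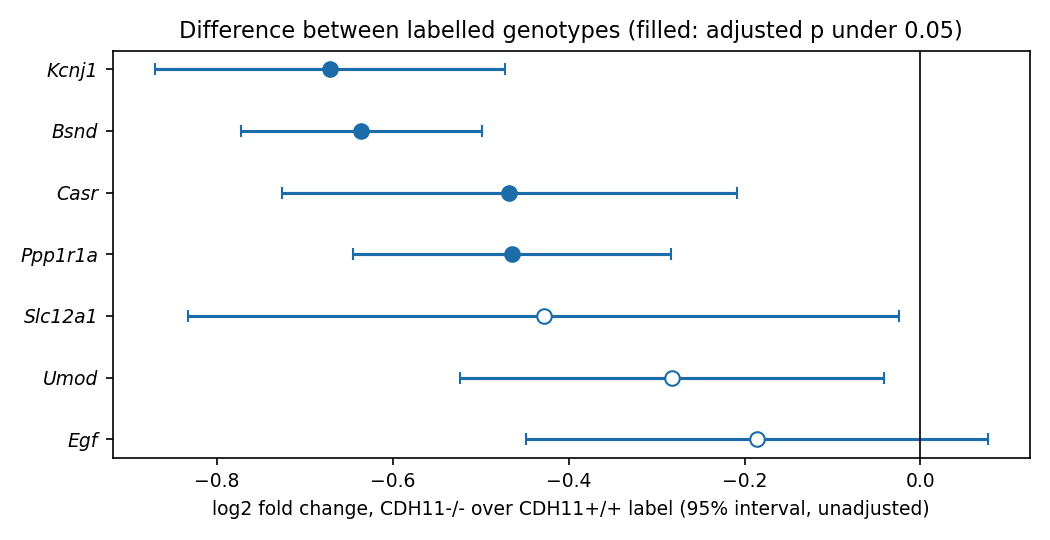
Log2 fold change of the 7 transcripts between the labelled genotypes with 95% intervals from the edgeR fit, not adjusted for the number of genes. Filled points passed the adjusted threshold (Kcnj1, Bsnd, Casr and Ppp1r1a), and the interval of Egf, from -0.45 to 0.08, includes 0.

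Per kilobase of exon sequence, used to set genes beside each other, Umod was the most abundant of the 7 in both groups. The length takes in every annotated exon of a gene, 11275 bases for Egf and 5763 for Slc12a1. It is not the length of the transcript made, so the order between genes depends on the annotation. Its level was 809.2 ± 115 CPM per kb (SD, n = 3) in the WT-labelled libraries and 665.4 ± 49.1 CPM per kb (SD, n = 4) in the KO-labelled ones, rank 38 of all tested genes over the 7 libraries. In the WT-labelled libraries Slc12a1 followed at 184.1 ± 39.2 CPM per kb (SD, n = 3) and Egf at 159.2 ± 27.1 CPM per kb (SD, n = 3). The ranges of Slc12a1 and Egf overlapped. Below them stood Kcnj1 at 95.45 ± 9.34, Ppp1r1a at 67.62 ± 4.61, Bsnd at 25.33 ± 1.65 and Casr at 18.55 ± 1.02 CPM per kb (SD, n = 3), each with a range apart from the next. In the KO-labelled libraries Egf (140.0 ± 9.47 CPM per kb, SD, n = 4) and Slc12a1 (136.8 ± 25.0 CPM per kb, SD, n = 4) again overlapped. There the ranges of Kcnj1 and Ppp1r1a met as well, at 59.93 ± 4.82 and 49.00 ± 4.26 CPM per kb (SD, n = 4), as did those of Bsnd and Casr, at 16.29 ± 0.441 and 13.41 ± 2.11 CPM per kb (SD, n = 4). Together the 7 genes took 0.491% to 0.644% of all counts in the WT-labelled libraries and 0.417% to 0.484% in the KO-labelled ones.

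The members did not vary as a block from library to library. On log2 CPM centred on each gene's mean, WT-labelled replicate 1 was the highest library for Umod (0.38), Slc12a1 (0.54), Kcnj1 (0.48), Egf (0.35) and Casr (0.35). In WT-labelled replicate 2 Kcnj1 and Bsnd stayed high (0.46 and 0.43), whereas Slc12a1 was at -0.09 and Umod at 0.01. KO-labelled replicate 2 was the lowest library for Slc12a1 (-0.55), Umod (-0.24) and Ppp1r1a (-0.34). For Kcnj1 (-0.42) and Casr (-0.50) the lowest was KO-labelled replicate 3. Bsnd was about equally low in KO-labelled replicates 3 (-0.31) and 2 (-0.30). The closest pair over the 7 libraries was Kcnj1 and Bsnd, with a root-mean-square distance of 0.063 on this scale, followed by Bsnd and Ppp1r1a at 0.146 and Umod and Egf at 0.149. Slc12a1 and Casr were farthest apart, at 0.289. These distances include the difference between the groups and describe 7 libraries.

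**Figure D3:**
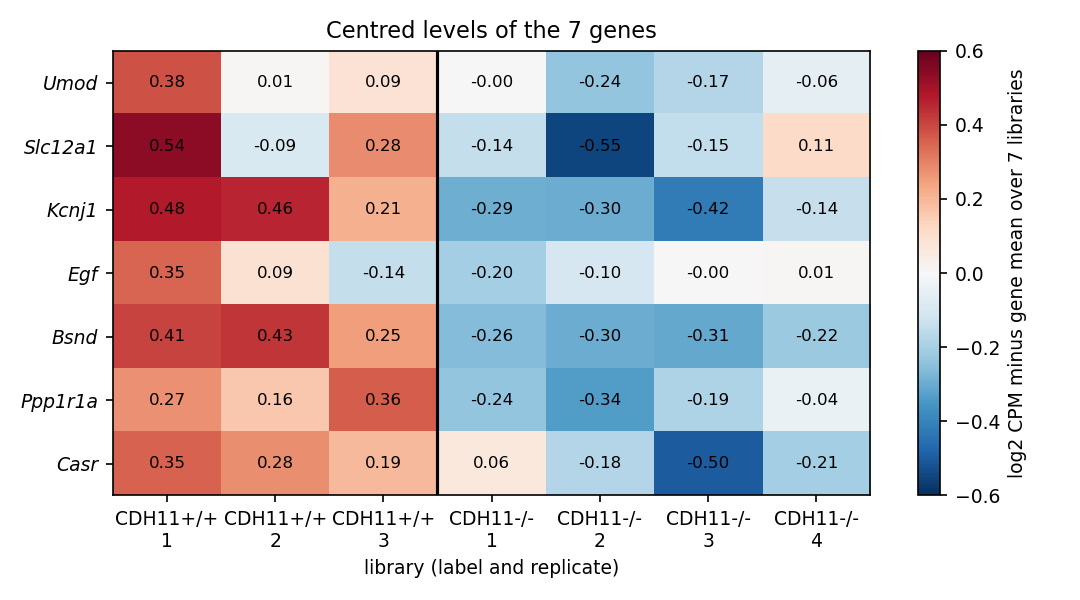
Log2 CPM of each gene (rows) in each library (columns) minus the gene's mean over the 7 libraries, with red above and blue below the mean. Kcnj1 and Bsnd carry nearly the same pattern, while Slc12a1 ranges from 0.54 in WT-labelled replicate 1 to -0.55 in KO-labelled replicate 2.

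Ratios between transcripts of a library do not depend on its scaling, and those to Slc12a1 asked whether the cotransporter and its partners moved apart. The Kcnj1 to Slc12a1 count ratio was 0.265, 0.403 and 0.263 in WT-labelled replicates 1 to 3 and 0.248, 0.328, 0.228 and 0.231 in KO-labelled replicates 1 to 4. The groups overlapped, since KO-labelled replicate 2 lay above WT-labelled replicates 1 and 3. The mean log2 ratio differed by -0.25 (exact permutation p = 0.371, adjusted p = 0.60 over 6 ratios). For Umod the difference was 0.15 (exact permutation p = 0.314, adjusted p = 0.60), for Egf 0.25 (exact permutation p = 0.314, adjusted p = 0.60) and for Bsnd -0.21 (exact permutation p = 0.400, adjusted p = 0.60). Those of Ppp1r1a and Casr were -0.04 and -0.05 (exact permutation p = 0.800 and 0.857, adjusted p = 0.857 for both). None of the 6 ratios differed beyond the spread between libraries, a spread that the variation of Slc12a1 itself widens.

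Set against the mean log2 CPM of the other 6 members in place of Slc12a1, 3 genes separated the groups. The log2 difference was -0.26 for Kcnj1, -0.22 for Bsnd and 0.20 for Umod, each with an exact permutation p = 0.0286, the smallest that 3 against 4 libraries can give, and an adjusted p = 0.0571 over 6 genes. For Egf it was 0.32 (exact permutation p = 0.0857, adjusted p = 0.129). The adjusted values miss the threshold, which 3 genes at the smallest p cannot reach over 6 genes, whatever the size of their differences. An unequal fall of the members was thus not established, and this test could not decide it.

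**Figure D4:**
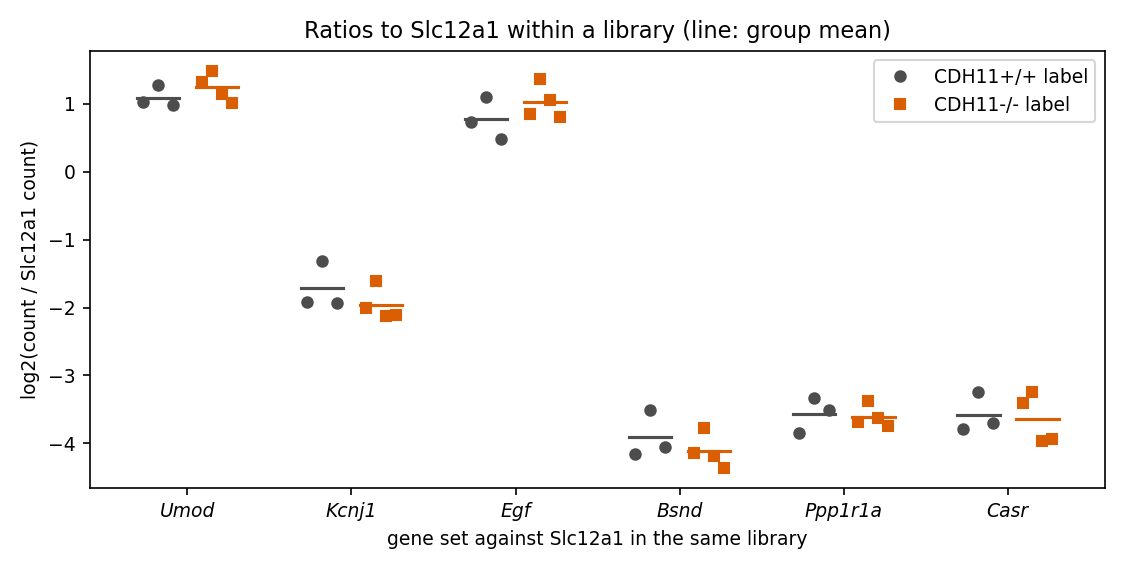
Log2 ratio of each gene's count to the Slc12a1 count in the same library, by label, with lines at group means. The groups overlap for each of the 6 genes, and WT-labelled replicate 2 and KO-labelled replicate 2, the libraries with the least Slc12a1 of their groups, sit highest within their groups for all 6.

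Other genes of the segment were read from 8 lists arranged by role, 79 genes of which 77 were tested. With edgeR 18 were called lower, 12 higher and 47 not called, where 12.9% of all tested genes were called lower and 16.8% higher. These shares are the ones to set beside the counts of each list below. The lists were chosen with earlier results of these data known, so the counts are no test of them. Without WT-labelled replicate 2 the numbers were 10 lower and 7 higher, and without WT-labelled replicate 1, 12 lower and 6 higher. Without WT-labelled replicate 3 there were 24 lower and 10 higher. DESeq2 called 26 lower and 13 higher, and limma-voom 24 lower and 12 higher. Over all tested genes the number called in either direction moved as well. It was 5327 with edgeR on all libraries, 4206 without WT-labelled replicate 2, 3804 without WT-labelled replicate 1 and 5300 without WT-labelled replicate 3. With DESeq2 it was 5959 and with limma-voom 5798. Several of these genes are also made elsewhere in the nephron, so the lists describe the kidney and not the limb alone.

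Of 11 transport partners 3 were lower and 2 higher with edgeR, while DESeq2 and limma-voom each called 5 lower and 2 higher. The number lower was 2 without any 1 of the WT-labelled libraries or KO-labelled replicate 2, 3 or 4 and without the filter on low counts. Kcnj10, a basolateral potassium channel of the distal nephron, fell 1.69-fold, with a mean CPM of 87.4 ± 12.1 (SD, n = 4) against 148.1 ± 26.8 (SD, n = 3) (edgeR adjusted p = 0.00466). Fxyd2, the gamma subunit of the sodium pump, rose 1.21-fold (adjusted p = 0.0186), and the sodium bicarbonate cotransporter Slc4a4, known mainly from the proximal tubule, rose 1.25-fold (adjusted p = 0.0368). Fxyd2 missed the threshold without WT-labelled replicate 1 (adjusted p = 0.0766), and Slc4a4 without WT-labelled replicate 1 or 2 or KO-labelled replicate 2, 3 or 4 and with limma-trend (adjusted p up to 0.12). The number higher was 0 without WT-labelled replicate 1 and 1 without WT-labelled replicate 2 or KO-labelled replicate 2, 3 or 4 and with limma-trend.

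Among 5 claudins of the paracellular path 1 rose and 0 fell (edgeR), a count near the 16.8% of all tested genes that were called higher. Cldn10, whose transcripts serve both the limb and the proximal tubule from different first exons, rose with a mean CPM of 59.3 ± 3.15 (SD, n = 4) against 47.6 ± 5.60 (SD, n = 3), or 1.25-fold (adjusted p = 0.0213). Counts per gene do not part these forms. At an unadjusted p under 0.05 there was 1 claudin lower, and DESeq2 and limma-voom each called 1 lower. Its rise missed the threshold on leaving out WT-labelled replicate 1 or 2 or KO-labelled replicate 2 (adjusted p 0.0505 to 0.0615). The number lower was 2 without WT-labelled replicate 3 and 1 without KO-labelled replicate 2 or 4.

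Of 14 kinases, phosphatases and trafficking factors, 3 fell and 1 rose. Stk39, the kinase SPAK that phosphorylates the cotransporter, fell 1.38-fold, with a mean CPM of 29.3 ± 2.31 (SD, n = 4) against 40.3 ± 3.22 (SD, n = 3) (edgeR adjusted p = 0.00298). The kinase Wnk4, which acts through SPAK, fell 1.22-fold (adjusted p = 0.0204) and Klhl3, an adaptor for the degradation of WNK kinases, 1.34-fold (adjusted p = 0.0441). Ppp1ca, a catalytic subunit of the phosphatase that inhibitor-1 blocks, rose 1.15-fold (adjusted p = 0.0272). Wnk4 missed the threshold without WT-labelled replicate 2 or KO-labelled replicate 3 (adjusted p up to 0.0605). Klhl3 missed it without WT-labelled replicate 1 or 2 or KO-labelled replicate 1, 3 or 4 and with limma-trend (adjusted p up to 0.128). Ppp1ca missed it without each library except KO-labelled replicate 4, without the filter on low counts and with limma-trend (adjusted p up to 0.0703). The number lower was 1 without WT-labelled replicate 2 or KO-labelled replicate 3, and the number higher 0 without each library except KO-labelled replicate 4, without the filter on low counts and with limma-trend.

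Hormone receptors and the cAMP path had 3 lower and 1 higher of 10. Adcy6, an adenylyl cyclase that couples vasopressin to salt transport, fell 1.37-fold (edgeR adjusted p = 0.00198). The vasopressin receptor Avpr2, of the limb and of principal cells, fell by 33.4% (adjusted p = 0.00472) and the glucagon receptor Gcgr 1.25-fold (adjusted p = 0.0169). Avpr2 is also among the principal cell markers counted for Kcnj1. Pth1r, the parathyroid hormone receptor, rose 1.44-fold, with a mean CPM of 343.1 ± 32.7 (SD, n = 4) against 237.6 ± 23.0 (SD, n = 3) (adjusted p = 0.00368). Pth1r is strongly made in the proximal tubule. Gcgr missed the threshold when WT-labelled replicate 1 (adjusted p = 0.0624) or 2 (adjusted p = 0.0605) was left out.

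Transcription factors moved in both directions, 4 of 11 lower and 3 higher. The estrogen-related receptor genes parted, Esrrg rising 1.29-fold (edgeR adjusted p = 0.00421) and Esrrb falling 1.52-fold (adjusted p = 0.0108). Ppargc1a, a coactivator of mitochondrial genes, fell 1.34-fold (adjusted p = 0.0243). Esrrg missed the threshold with limma-trend (adjusted p = 0.101), and Ppargc1a without WT-labelled replicate 2 or 3 or KO-labelled replicate 2 (adjusted p up to 0.0707). The number lower was 1 without WT-labelled replicate 2 or KO-labelled replicate 2, and 2 without WT-labelled replicate 1 or KO-labelled replicate 1 or 3.

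Further markers of the limb and of the macula densa, its sensor plaque, had 3 of 10 lower and 0 higher (edgeR), and none was higher at an unadjusted p under 0.05 or with DESeq2 or limma-voom. Mfsd4a, a transporter-like protein, fell 2.03-fold, with a mean CPM of 51.2 ± 8.84 (SD, n = 4) against 103.8 ± 7.10 (SD, n = 3) (edgeR adjusted p = 0.000659), more than any of the 7 members. Wfdc15b and Tmem72 fell 1.56-fold (adjusted p = 0.00283) and 1.32-fold (adjusted p = 0.0159), and Tmem72 missed the threshold without WT-labelled replicate 1 or 2 (adjusted p up to 0.0589). The 3 macula densa genes of the list, Ptgs2, Nos1 and Pappa2, stood at 0.3 to 3.3 CPM and none was called. The number lower was 5 without WT-labelled replicate 3 and with DESeq2, and 2 without WT-labelled replicate 1 or 2.

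Genes around uromodulin and EGF moved in both directions. Hpn, the protease hepsin that releases uromodulin, rose 1.48-fold, with a mean CPM of 228.2 ± 13.9 (SD, n = 4) against 154.5 ± 14.7 (SD, n = 3) (edgeR adjusted p = 0.00132), and the membrane protease Prss8 also rose 1.48-fold (adjusted p = 0.00209). Muc1, an apical mucin, fell 1.42-fold (adjusted p = 0.00981) and the protease Tmprss2 1.32-fold (adjusted p = 0.0211), making 2 lower and 2 higher of 6. Without WT-labelled replicate 1 or 2 or KO-labelled replicate 2 or 3, Tmprss2 missed the threshold (adjusted p up to 0.0735) and the number lower was 1. Of 12 genes for EGF receptors, other ligands and magnesium channels, 10 were tested. Of these 2 rose and 0 fell (edgeR), a count near the 16.8% of all tested genes that were called higher. Erbb3, a co-receptor of the family, rose 1.94-fold (adjusted p = 0.0019) and Erbb2 1.16-fold (adjusted p = 0.0235). Erbb2 missed the threshold without any 1 of the WT-labelled libraries or KO-labelled replicate 3 and with limma-trend (adjusted p up to 0.493). The EGF receptor Egfr had a log2 fold change of -0.20 (adjusted p = 0.0564). At an unadjusted p under 0.05 there were 2 lower and 3 higher, and DESeq2 also called 2 lower and 3 higher. Limma-voom called 1 lower, as did upper-quartile scaling, a mean of at least 1 CPM, limma-trend and the omission of mitochondrially encoded genes. The number higher was 1 without any 1 of the WT-labelled libraries or KO-labelled replicate 3 and with limma-trend, and the number lower was 2 without WT-labelled replicate 3 and 1 without WT-labelled replicate 1 or KO-labelled replicate 2.

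**Figure D5:**
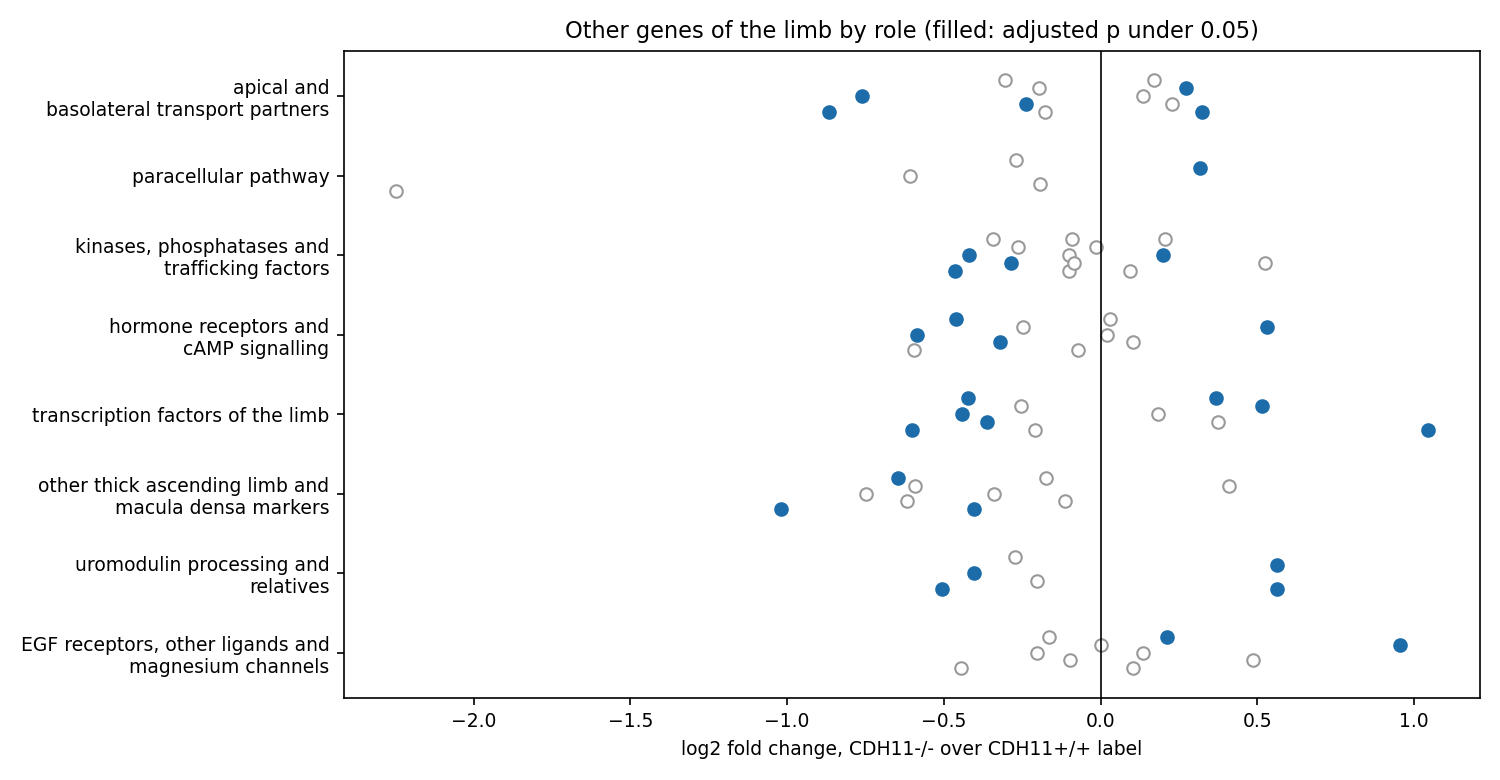
Log2 fold change of 77 tested genes in 8 role lists (rows), KO-labelled over WT-labelled. Filled points passed the adjusted threshold, 18 to the left of 0 and 12 to the right.

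The genes most like each member over the 7 libraries were found by the same distance among the 8978 genes whose mean reached 10 CPM. Because the distance includes the difference between the groups, a gene near a member that fell is lower in the KO-labelled libraries by selection. Kcnj1 was nearest to Pik3r3 (0.033), Mal (0.043) and Dlg4 (0.053). Mal, a membrane trafficking proteolipid, had a mean CPM of 118.5 ± 11.5 (SD, n = 4) in the KO-labelled libraries against 184.5 ± 21.3 (SD, n = 3). Bsnd was nearest to Dlg4 (0.040), Rap1gap2 (0.042) and Luzp1 (0.043). Slc12a1 was nearest to Epcam (0.071), an adhesion molecule of distal tubule epithelium, to Dnm3 (0.078) and to Esam (0.082). Umod was nearest to Utrn (0.036), Prss23 (0.053) and Twsg1 (0.057), and Egf to Mboat2 (0.064), Morf4l1 (0.071) and Polk (0.073). The nearest to Ppp1r1a were Slc25a35 (0.041), Hk1 (0.050) and Fmnl2 (0.055), and to Casr Podxl (0.074), Klk1 (0.075) and Zc3h11a (0.084). Podxl is a podocyte gene.

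Markers of other kidney cells were read in the same libraries (edgeR), where 12.9% of all tested genes were called lower and 16.8% higher. A single called marker in a list of 6 or 7 lies near these shares. Of 8 proximal tubule markers 5 were called higher and 0 lower, with a summed level of 9340 to 11400 CPM in the WT-labelled libraries and 14040 to 16000 CPM in the KO-labelled ones and a median log2 fold change of 0.85. Podocyte markers had 5 of 6 lower and 0 higher, at 423.6 to 515 against 261.9 to 381.9 summed CPM, a cell type apart from the tubule. Intercalated cell markers had a median log2 fold change of -0.53 (220 to 357.3 against 164.5 to 208.5 summed CPM), principal cell markers of -0.44 (440.8 to 644.7 against 371.8 to 406.7) and endothelial markers of -0.29 with 2 of 6 lower and 0 higher (325.1 to 394 against 231 to 285.7). Distal convoluted tubule markers had 1 of 6 lower and a median of 0.04 (2977 to 3752 against 2325 to 3029 summed CPM), and thin limb markers 1 of 7 lower and a median of -0.15 (486.2 to 696.9 against 465.3 to 595.9). Fibroblast and mural markers had 1 of 6 lower and 1 higher (193.5 to 331.2 against 268.8 to 330.8), and leukocyte markers 0 lower and 1 higher of 6 (34.0 to 72.2 against 61.9 to 74.7). None of these markers was at 0 counts in all libraries. The 7 members summed to 5172 to 6578.3 CPM in the WT-labelled libraries and 4204.7 to 4934.3 CPM in the KO-labelled ones, and the part of cell make-up in that difference was not tested.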

How the data were processed

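RNA of 7 whole kidneys was measured by bulk sequencing of directional libraries (NEBNext Ultra II), per the labels' protocols. The authors deposited expected counts, estimated reads per gene given as whole numbers. They also deposited a normalized signal that equals these counts times factors differing between genes and libraries. DRAGEN, DESeq2 and the build mm10 are listed in the submitters' processing notes, without versions. Which annotation, strand option and read filters were used is not given in the sources used here. Of 42256 identifiers, 42170 took a symbol from GENCODE M21, on the same assembly as mm10. Total counts were 72087906 to 84786351 per library.

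Labels were compared across 17964 genes with the quasi-likelihood test of edgeR 4.0.16 in R 4.3.3 (filterByExpr, TMM, robust estimation; 2-sided). Genes passed when their p, adjusted by Benjamini-Hochberg, was under 0.05. On simulated counts of the same design (17772 genes), 40.3% of 67 genes changed by 0.5 (log2) were found again, and 94% of 67 changed by 1. CPM values use TMM-scaled library sizes. Standard errors are the log2 fold change divided by the square root of the F statistic, and 95% intervals use the test's degrees of freedom, unadjusted. Ratios within a library were compared by an exact permutation test over 35 assignments, whose smallest p is 0.0286. Alternatives were DESeq2 1.42.0, limma-voom and limma-trend (limma 3.58.1, the latter on log2 of the deposited signal plus 1), other scalings and filters, and the omission of each library. Ratios and summaries were computed in Python 3.11.15 (SciPy 1.17.1, pandas 2.3.3).

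The 7 genes and the role lists were chosen with earlier results of these data known. Besides the 7 genes, named genes were the up to 4 called members of each role list with the smallest adjusted p and the 3 nearest profiles of each of the 7. Some genes that this rule names are not reported here, though the counts over lists include them. Groups came from the genotype in the labels. No pair of libraries agreed within sampling noise (median chi-square per gene 2.69 to 12.82 over 21 pairs), so all 7 counted as samples. The design text counts 3 and 4 mice, as many as there are libraries, without tying each library to a mouse, and p-values measure the spread between these libraries.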

Additional observations from a re-analysis of the deposited data

How the results depend on the processing

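In all 15 alternative fits the log2 fold changes of the 7 transcripts stayed under 0, and between 3 and 6 of them were called lower (6 with DESeq2, 5 with limma-voom, 3 without WT-labelled replicate 1), with 0 called higher in each. Of 105 values for single members, 100 kept their side of the threshold, 4 (Umod and Slc12a1) passed it only in the alternative and 1 (Casr) lost it. At an adjusted p under 0.01, 3 members were lower. In the role lists, 8 genes were lower and 6 higher at an adjusted p under 0.01. Leaving out each library in turn gave 10 to 24 lower and 6 to 11 higher in these lists, where the cause was not tested. Over all tested genes the number called in either direction was 5327 with all libraries and 3804 to 5300 with 1 left out. The log2 ratio differences to Slc12a1, without each library in turn, ran from 0.07 to 0.24 for Umod, -0.36 to -0.04 for Kcnj1, 0.11 to 0.41 for Egf and -0.33 to -0.01 for Bsnd. Those of Ppp1r1a (-0.18 to 0.07) and Casr (-0.19 to 0.11) changed sign, with 0.074 and 0.003 for Ppp1r1a without WT-labelled replicate 2 and KO-labelled replicate 4, and 0.114, 0.054 and 0.044 for Casr without WT-labelled replicate 2 and KO-labelled replicates 3 and 4. The ratios with deposited normalized values kept their direction. No paired analysis was possible because the replicate numbers were given in accession order and pair nothing. With 3 and 4 libraries the simulated recovery at a log2 change of 0.5 was 40.3%. Far fewer genes changed in the simulation than the 5327 called in the data, so a stricter p was needed there. The simulated figure is thus not the recovery for Umod or Egf. That they missed the threshold does not show that they were unchanged. Of 39 values tested for a library far from the other 3 of the KO-labelled group, none was.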
